A study of Mus musculus with 42 samples.

Results

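Short LAD calls were the 197 intervals of 50 kb to under 500 kb on chromosomes 1 to 19 among 2845 lamina-associated domains (LADs) called from lamin B1 (LMNB1) ChIP-seq in mouse liver. They were chosen by their length alone, out of 2764 autosomal calls, and merged where they shared at least 1 bp they formed 145 loci that held 62.0 Mb, or 2.52% of the autosomes. The 197 calls were spread very unevenly over the 14 libraries, since 194 of them came from 6 libraries, 3 further libraries held 1 each and 5 held none. LMNB1 ChIP-seq had been done on 2 mice at each of 7 time points, non-synchronized (NS) mice and circadian times CT0, CT6, CT12, CT18, CT24 and CT30. All mice were wild-type C57Bl/6 without a transgene or deletion, given as female in one label field and as male in another and in the methods, and their age is not given in the sources used here. NS mice were fed and sacrificed at noon on the day before fasting, CT0 mice had been kept off chow for 24 h, and mice of the later times had then been refed ad libitum from CT0 at lights on. Pieces of whole liver were used, so the calls average over hepatocytes and all other liver cells, and intervals without expression values give no marker by which to check the tissue.

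LADs are long stretches of chromatin that contact the nuclear lamina, the meshwork of A-type and B-type lamins under the inner nuclear membrane. They are known to be poor in genes and GC, rich in heterochromatin and mostly silent, and in liver the genes for plasma proteins lie largely outside them. Each mouse's LADs had been called with Enriched Domain Detector (EDD), which scores fixed bins for ChIP over input, joins enriched bins across weaker ones at a penalty and keeps significant runs. Borders therefore lie on a grid, and the grid step, taken here as the largest number of kb that divides all starts on whole kb, differed between the mice from 4 to 61 kb. The deposited intervals carry neither a score nor a read count, so the depth behind a call is unknown, and the precision comes from the 2 mice of each time point.

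The first 4 loci by number of libraries with a short call are shown by 200 bases each. These lie at the middle of the stretch common to the calls, which marks the place that these mice had in common. Of all loci, 1 was short in 4 libraries and 7 in 3, and ties were taken by the smaller chromosome number and start. The bases are those of the RefSeq assembly GRCm38.p6, the mm10 build of the files, and capitals mark CpG dinucleotides.

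Chromosome 3 locus, chr3:62808901-62809100, + strand: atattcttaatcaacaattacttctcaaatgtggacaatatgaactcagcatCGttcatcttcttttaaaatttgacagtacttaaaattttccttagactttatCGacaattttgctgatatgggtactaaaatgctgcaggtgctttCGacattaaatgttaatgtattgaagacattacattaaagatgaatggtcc
Chromosome 2 locus, chr2:143386401-143386600, + strand: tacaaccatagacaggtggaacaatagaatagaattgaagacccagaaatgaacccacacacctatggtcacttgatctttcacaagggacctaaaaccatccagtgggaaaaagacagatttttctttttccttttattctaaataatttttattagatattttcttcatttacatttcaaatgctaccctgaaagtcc
Chromosome 6 locus, within Sval1, chr6:41953901-41954100, + strand: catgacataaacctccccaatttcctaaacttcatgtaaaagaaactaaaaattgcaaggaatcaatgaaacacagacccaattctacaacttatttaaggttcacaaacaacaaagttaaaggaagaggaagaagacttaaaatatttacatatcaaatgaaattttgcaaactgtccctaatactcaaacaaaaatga
Chromosome 7 locus, snoRNA genes between Ube3a and Snrpn, chr7:59594901-59595100, + strand: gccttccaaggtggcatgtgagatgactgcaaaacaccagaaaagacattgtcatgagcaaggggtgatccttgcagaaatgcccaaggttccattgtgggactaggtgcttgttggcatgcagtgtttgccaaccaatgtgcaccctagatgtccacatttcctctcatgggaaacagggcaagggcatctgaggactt

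A window of this size does not stand for its call. The chromosome 3 window held 30.5% GC and 3 CpG, with 24 of its 200 bases masked as repeats by RefSeq, while the 4 calls around it held 37.7% to 38.2% GC and 43.5% to 44.6% masked bases. The chromosome 2 window held 34% GC and 182 masked bases, and its 3 calls 40.2% to 40.3% GC and 34.4% to 34.9% masked bases. The chromosome 6 window held 30% GC and 69 masked bases, and its 3 calls 39.2% to 39.6% GC and 57.2% to 59.8% masked bases. The chromosome 7 window, in the snoRNA genes, held 50% GC and was masked over all 200 bases, and its 3 calls held 44.3% GC and 74.8% to 75.2% masked bases. The autosomes held 41.9% GC, so the calls at the first 3 places lay below that value and those on chromosome 7 above it.

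The number of short calls was first set against the grid step and the time point. NS replicate 2 held 56 short calls on a step of 4 kb, while NS replicate 1 held 1 on a step of 61 kb. CT0 replicate 2 held 51 on a step of 4 kb, and CT0 replicate 1 held none on a step of 47 kb. CT6 replicate 2 held 14 on a step of 11 kb, and CT6 replicate 1 none on a step of 35 kb. At these 3 time points the mouse with the finer grid thus had nearly all short calls. CT12 was the time point at which both mice had a step of 10 kb or less, with 26 short calls in replicate 1 at 5 kb and 12 in replicate 2 at 10 kb. CT18 replicate 2 held 35 on a step of 6 kb and CT18 replicate 1 none on 19 kb. CT24 held 0 and 1 on steps of 14 and 18 kb, and CT30 held 1 and 0 on steps of 31 and 46 kb. Every library with a step of 11 kb or less held at least 12 short calls, and every library with a step of 14 kb or more held at most 1.

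**Figure D1:**
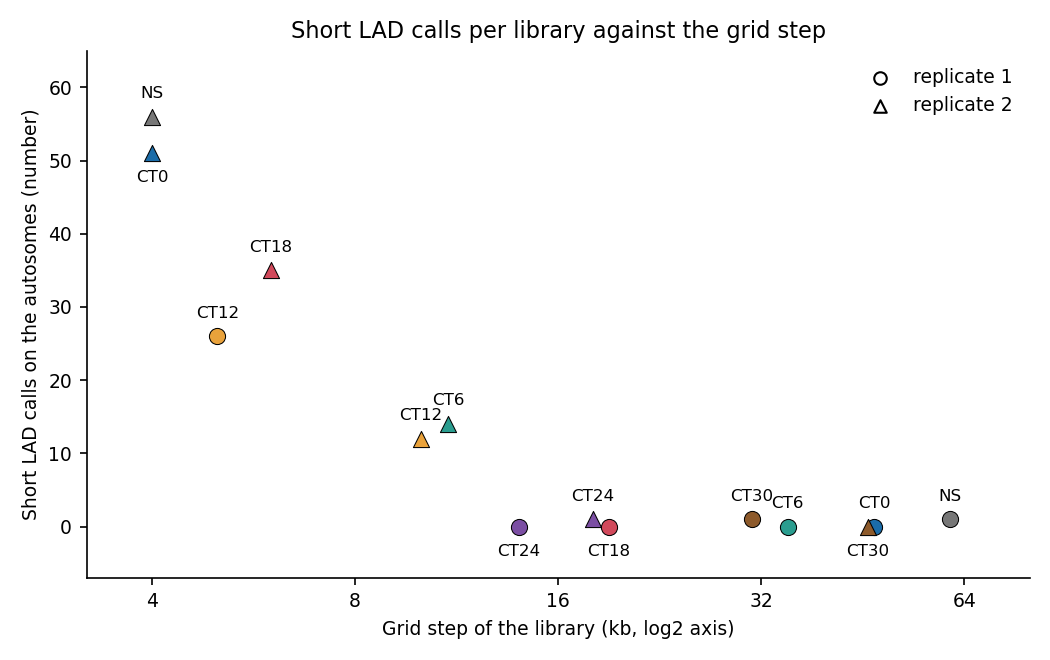
Number of short LAD calls on the autosomes (y axis) of each of the 14 libraries against its grid step in kb (x axis, log2 scale), labelled by time point, with circles for replicate 1 and triangles for replicate 2. The 6 libraries with steps of 4 to 11 kb hold 12 to 56 short calls and the 8 libraries with steps of 14 to 61 kb hold 0 or 1.

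Over the 14 libraries the number of short calls fell with the log2 grid step, with Pearson's r = -0.86 (permutation test, two-sided, p = 1e-05, the smallest that 100000 resamples can give) and Spearman's rho = -0.82 (permutation p = 0.00071). The percentage of a library's autosomal calls that were short gave r = -0.86 and rho = -0.79, and adjusted over these 2 relations the p-values for r were 1e-05 and those for rho 0.00139. Without NS replicate 2 and CT0 replicate 2, whose steps lay farthest from the median, r was -0.82 for the number. The authors had EDD estimate both bin size and gap penalty from each library, so step and penalty cannot be told apart here. The libraries formed 2 clusters, so the relation was also taken within each. Among the 6 libraries with steps of 11 kb or less, r was -0.91 (exact permutation p = 0.0306) and rho -0.87 (exact p = 0.0333), and among the 8 with larger steps, where the number was 0 or 1, r was 0.11 (exact p = 0.768). Within the 7 mice numbered replicate 2, r was -0.91 (exact permutation p = 0.00238), and within the 7 numbered replicate 1, of which CT12 alone had a fine grid, r was -0.79 (exact p = 0.124) and rho -0.18 (exact p = 0.743), against a rho of -0.95 (exact p = 0.00397) in replicate 2.

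Between time points the number of short calls did not differ by more than the spread between mice. The 2 mice of each time point also differed in grid step, so that spread holds both, and the test cannot separate them. NS mice averaged 28.5 ± 38.9 short calls (SD, n = 2 here and in the following), CT0 mice 25.5 ± 36.1 and CT6 mice 7 ± 9.9. CT12 mice averaged 19 ± 9.9, CT18 mice 17.5 ± 24.7, and CT24 and CT30 mice 0.5 ± 0.71 each. The F ratio between the 6 CTs was 0.626 (exact permutation test with 10395 divisions of 12 libraries into 6 pairs, p = 0.697), and it ranged from 0.452 to 2.78 when 1 library was left out, the highest without CT0 replicate 1 (exact p = 0.182). CT0 minus NS was -3 calls (exact two-sided permutation test, p = 0.667, where 2 mice against 2 cannot go below 0.33). Since CT24 and CT30 had no mouse with a step under 14 kb, time point and grid step cannot be told apart for the low numbers there.

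The lengths of the short calls were bounded below. Of the 197, 189 had both borders on whole kb, and these ran from 324 to 498 kb with a median of 420 kb. The shortest such call was 324 kb in NS replicate 2 and CT0 replicate 2, which is 81 grid steps, 325 kb or 65 steps in CT12 replicate 1, 330 kb or 55 steps in CT18 replicate 2, 330 kb or 33 steps in CT12 replicate 2 and 374 kb or 34 steps in CT6 replicate 2. The shortest call on the grid was thus of like length in kb and not in steps in these 6 libraries. In the other 8 libraries the shortest call on whole kb was 518 to 1551 kb, above the limit that defines a short call. Just inside that limit, 53 short calls lay between 450 and 498 kb, and just outside it 50 calls lay between 500 and 550 kb.

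**Figure D2:**
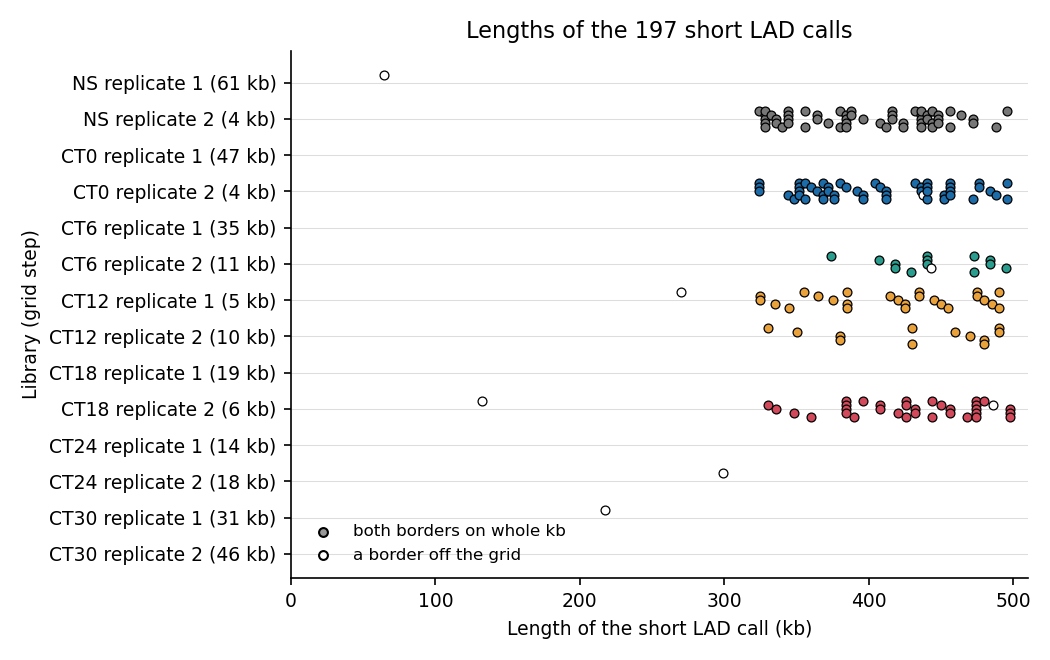
Length in kb (x axis) of each of the 197 short LAD calls by library (y axis, with its grid step), 1 point per call, spread vertically for legibility, and open points for calls with a border off the grid. Filled points start at 324 kb, and all calls shorter than that are open.

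The other 8 short calls had a border that was not on whole kb, and they ran from 64.6 to 486 kb. All 8 lay within 1 kb of a run of N, the letter that stands for unknown bases at an assembly gap, against 2 of the 189 calls on the grid. They included every short call of NS replicate 1 (chr9:13416386-13481000), CT24 replicate 2 (chr12:114840001-115138887) and CT30 replicate 1 (chr4:122387381-122605000). On chromosome 16, CT18 replicate 2 had 2 of them back to back, chr16:19038001-19170104 and chr16:19170234-19656000, of which the second held Olfr164 to Olfr171, and CT6 replicate 2 had chr16:19170234-19613000. On chromosome 17, CT0 replicate 2 and CT12 replicate 1 shared the right border 54705270, and 1.62 kb beyond it lay a call of 4.932 kb, a piece found in 11 libraries. In 5 of the 8, another call of the same library lay within 1 kb. The part of assembly gaps in these borders was not tested.

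The calls were next followed from mouse to mouse, and a call was counted as covered where the LADs of another library held at least 0.5 of its length. Of the 197, 93 had a short call in at least 1 other library with which they shared at least 0.5 of the longer of the 2, that is 68 in 1, 21 in 2 and 4 in 3 other libraries, and 104 had none. A longer LAD of another library covered 147 (74.6%), and 125 (63.5%) lay wholly inside one, of which 28 did so in 1 library, 58 in 2 to 4 and 39 in 5 or more. Both forms were found for 64 calls, the longer LAD alone for 83, the short call alone for 29 and neither for 21. A short call was covered in a median of 3 of the 13 other libraries. The share wholly inside a longer LAD elsewhere was 78.6% of 56 in NS replicate 2, 68.6% of 51 in CT0 replicate 2, 61.5% of 26 in CT12 replicate 1, 58.3% of 12 in CT12 replicate 2, 50% of 14 in CT6 replicate 2 and 40% of 35 in CT18 replicate 2. CT18 replicate 2 also had the largest coverage of the autosomes by LADs, 26.5%.

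**Figure D3:**
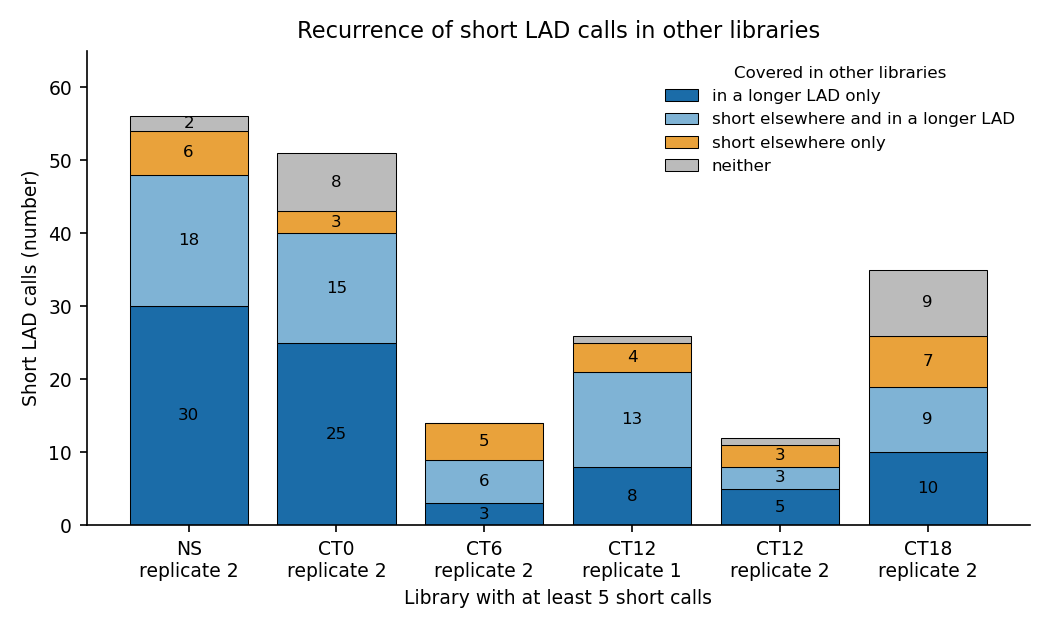
Number of short LAD calls (y axis) in the 6 libraries with at least 5 of them (x axis), divided by whether other libraries held at least 0.5 of the call in a longer LAD, as a short call, in both forms or in neither. Calls in a longer LAD elsewhere make up 48 of 56 in NS replicate 2 and 19 of 35 in CT18 replicate 2.

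It was next asked whether the other mouse of a time point covered the short calls more often than mice of other time points did, and the difference was within the spread of the pairs. The replicate covered 7 of 56 in NS replicate 2, 8 of 51 in CT0 replicate 2, 1 of 14 in CT6 replicate 2, 8 of 35 in CT18 replicate 2, 13 of 26 in CT12 replicate 1 and 8 of 12 in CT12 replicate 2. Averaged over both directions, the share was 30.0% in the 7 replicate pairs and 28.6% in the 74 other pairs with a short call (difference 1.49 percentage points, exact permutation test, one-sided, with 135135 divisions of the libraries into 7 pairs, p = 0.389). The CT24 pair stood at 100%, but on 1 call, and without CT24 replicate 1 the difference was -10.8 points. CT12, whose mice both had fine grids, stood at 58.3%, and without either of its mice the difference was -2.99 or -2.82. The 2 CT12 mice had 4 short calls in common, 15.4% of 26 and 33.3% of 12, and NS replicate 2 and CT0 replicate 2 had 8, 14.3% of 56 and 15.7% of 51. Coverage followed the grid of the covering library as well. The libraries with steps of 4 to 11 kb covered 40% to 62.3% of the short calls of other libraries, with LADs over 21.1% to 26.5% of the autosomes, and those with steps of 14 to 61 kb 8.12% to 33.0%, while their LADs held 13.5% to 25.6% of the autosomes.

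The longer LADs that held short calls were examined for what else the mouse with the short call had there. The 125 calls gave 482 pairs of a short call and a longer LAD of another library around it, and these LADs were 500 to 16834 kb long with a median of 1618 kb. In 254 pairs (52.7%) the short call was the only LAD of its own library in that stretch, in 150 there were 2 calls and in 78 there were 3 or more, up to 6. By calls, 65 were alone in every longer LAD that held them, 43 in none, and 17 in some only. The mouse with the short call had LADs over a median of 55.9% of the longer LAD. In 200 pairs (41.5%) the short call lay within 100 kb of an end of the longer LAD. Where the longer LAD came from one of the 6 fine-grid libraries, its median length was 942 kb and the short call was alone in 71.5% of 239 pairs, and where it came from one of the other 8, the median was 3139 kb and the short call was alone in 34.2% of 243 pairs. On chromosome 2, for example, NS replicate 2 had 2 short calls, chr2:141300001-141772000 and chr2:141964001-142404000, 192 kb apart, and each was covered by a longer LAD in 10 other libraries.

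The most recurrent locus, chr3:62544001-63096000, was a short call in 4 libraries and a LAD in no other. Its lengths were 436 kb in NS replicate 2, 418 kb in CT6 replicate 2, 325 kb in CT12 replicate 1 and 480 kb in CT12 replicate 2, and 262 kb were common to all 4. Its only protein-coding start is that of Gpr149 (chr3:62529077-62605140), an orphan G protein-coupled receptor gene at its left edge, which lay in the calls of NS replicate 2 and CT12 replicate 2 and outside the stretch common to all 4. The calls of CT6 replicate 2 and CT12 replicate 1 held no protein-coding start. At chr6:41725001-42204000, NS replicate 2, CT12 replicate 1 and CT18 replicate 2 had calls of 436, 415 and 420 kb and the other 11 libraries had no LAD. It holds 7 protein-coding starts, of Olfr459, the bitter taste receptor gene Tas2r139, which the call of CT12 replicate 1 did not reach, and Pip, Sva, Sval1, Sval2 and Sval3, which encode secreted proteins of the prolactin-induced protein and seminal vesicle antigen family. At chr7:59376001-59807000, NS replicate 2, CT6 replicate 2 and CT18 replicate 2 had calls of 416, 429 and 426 kb whose borders agreed within 12 kb on the left and 5 kb on the right. It lies inside the RefSeq transcript Snhg14, 65.2 kb from Ube3a and 175 kb from Snrpn, in the imprinted Prader-Willi and Angelman region, and 168 of its 169 annotated gene starts are snoRNAs. CT24 replicate 1 had a longer LAD of 9716 kb, chr7:50078001-59794000, which held all of the locus but its right end, and 10 libraries had no LAD there.

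Other recurrent loci lay in longer LADs of other libraries. At chr13:66500001-66890000, where no protein-coding gene starts, NS replicate 2, CT0 replicate 2 and CT12 replicate 1 had short calls of 380, 360 and 385 kb, while 9 other libraries had LADs of 1550 to 2382 kb. All 12 ended between positions 66850000 and 66929000, so that the short calls shared the right end of the longer LADs. In the left part of the longer LADs NS replicate 2 had another short call, 748 kb from the first. In CT0 replicate 2 and CT12 replicate 1 that part held no call, and the nearest one was 4924 and 4800 kb away. At chr15:50910001-51480000, both CT12 mice and CT18 replicate 2 had short calls of 445, 490 and 474 kb, and both CT0 mice, CT18 replicate 1 and CT24 replicate 1 had LADs of 6652 to 9918 kb. At chr2:143124001-143604000, CT0 replicate 2, CT6 replicate 2 and CT18 replicate 2 had short calls of 412, 374 and 480 kb over the start of Pcsk2 (chr2:143546156-143816285), a convertase of prohormones, and NS replicate 1 and CT0 replicate 1 had LADs of 5917 and 5499 kb there. At chr18:30980001-31370000 on Rit2, a neuronal Ras-like GTPase gene, NS replicate 2, CT0 replicate 2 and CT12 replicate 1 had short calls of 356, 368 and 325 kb. CT0 replicate 1 had a LAD of 5922 kb there, CT18 replicate 2 had 510 kb and CT12 replicate 2 had 650 kb, so that for the last 2 the limit of 500 kb divided calls of the same place. The same held at chr19:33410001-33940000, which holds the starts of the lipase genes Lipo1 to Lipo4. NS replicate 2 and both CT12 mice had short calls of 444, 485 and 480 kb there, and 5 libraries had 671 to 1273 kb.

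**Figure D4:**
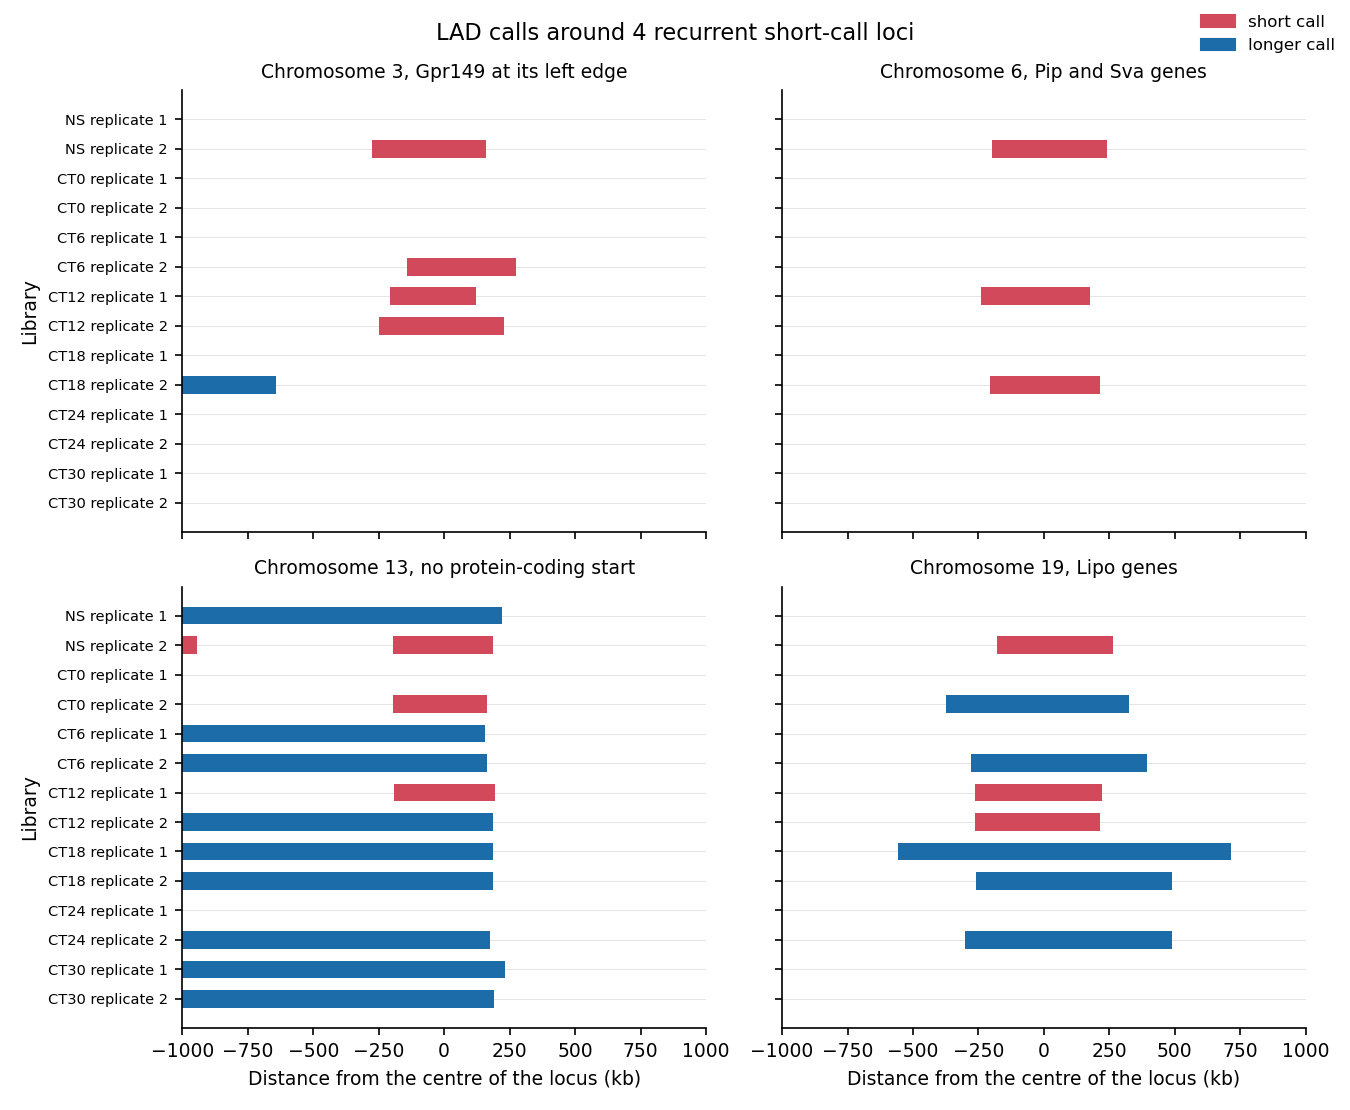
LAD calls of the 14 libraries (y axis) within 1000 kb of the centre of 4 recurrent loci (x axis, distance in kb), with short calls in red and longer calls in blue, ending at the edges of the panel. Short calls stand without a longer LAD over them at the loci on chromosomes 3 and 6. On chromosome 13 they share their right end with longer LADs of 9 libraries. At the Lipo genes they overlap LADs of 671 to 1273 kb.

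The remaining 2 of the 10 named loci were short calls in 2 libraries and LADs in no other. Since 35 loci were short in 2 libraries, these were named because ties went to the smaller chromosome number. At chr1:84954001-85344000, NS replicate 2 and CT18 replicate 2 had calls of 384 and 390 kb with the same right border. At chr1:106910001-107340000, the 2 CT12 mice had calls of 425 and 430 kb with the same left border, over Serpinb12, Serpinb13 and Serpinb3a to Serpinb3d, which encode intracellular serpins of skin and other epithelia. No mouse of another time point had a LAD there. The locus was 1 of 145, was no more recurrent than the rest of those 35, and was named by that rule with no test.

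At the other end, 18 of the 21 calls that no other library covered were not touched by any call of another mouse. Of the 21, 9 were in CT18 replicate 2 and 8 in CT0 replicate 2. They included chr3:80380001-80876000 in CT0 replicate 2 over the start of Gria2, an AMPA receptor subunit, chr15:54060001-54432000 in the same mouse with Tnfrsf11b and the collectin gene Colec10, and chr18:43904001-44284000, also of that mouse, with 10 starts, mostly of the Spink protease inhibitor family. CT18 replicate 2 alone had chr18:44964001-45372000 over the start of the potassium channel gene Kcnn2 and chr2:13650001-14034000 over St8sia6, a sialyltransferase gene. CT12 replicate 1 alone had chr19:43065001-43410000 over Hpse2, a heparanase-like gene. These places were picked here from the list of 21 after their genes were seen. Conversely, 14 short calls were covered in 10 or more other libraries, and the 356 kb call chr7:11600001-11956000 of CT0 replicate 2, over Vmn1r72 to Vmn1r76, lay in a longer LAD of all 13.

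The sequence and gene content of the short calls were compared with those of the longer calls, of 500 kb or more, in the same library. The comparison was made in the 6 libraries with at least 5 short calls and tested over libraries with exact two-sided sign changes, which cannot go below p = 0.03125 with 6, and adjusted over 4 measures. The libraries share loci, so their 6 differences are not independent of each other. Short calls held 5.19 ± 1.56 protein-coding starts per Mb (SD, n = 6) and longer calls 3.36 ± 0.21, higher in the short calls of 6 of 6 libraries (exact p = 0.03125, adjusted p = 0.0417), while the rest of the autosomes held 9.82 to 10.2 in these libraries. Genes were unevenly spread, since 33.3% to 66.1% of the short calls of these libraries held no protein-coding start. In CT12 replicate 2, the 2 calls of 400 to 450 kb held 20.9 per Mb. The values per library were 3.53 against 3.31 in NS replicate 2, 4.87 against 3.06 in CT0 replicate 2, 7.08 against 3.66 in CT6 replicate 2, 4.04 against 3.21 in CT12 replicate 1, 7.16 against 3.50 in CT12 replicate 2 and 4.47 against 3.43 in CT18 replicate 2. This difference depended on what the short calls were set against. Calls of 500 kb to under 1 Mb held 6.31 ± 1.06 starts per Mb, and short minus longer calls was then -1.12 per Mb, with that sign in 5 of 6 libraries (exact p = 0.125, adjusted p = 0.167). With the limit at 400 kb, short minus longer calls was -0.67 per Mb in the 4 libraries that had at least 5 short calls (exact test, adjusted p = 0.5). Over the calls of all 6 libraries the density was 2.86 per Mb under 350 kb, 2.88 at 350 to 400 kb, 6.76 at 400 to 450 kb and 4.41 at 450 to 500 kb. In longer calls it was 5.53 at 500 to 750 kb, 6.89 at 750 to 1000 kb, 4.78 at 1000 to 2000 kb, 2.84 at 2000 to 4000 kb and 2.51 in calls of 4 Mb and more. The density thus fell with length from the class of 750 to 1000 kb on and had no single trend over all lengths.

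GC content was 39.2 ± 0.77% in short calls and 37.8 ± 0.29% in longer calls (SD, n = 6), higher by 1.41 percentage points and in 6 of 6 libraries (exact p = 0.03125, adjusted p = 0.0417). Per library, short calls held 38.5% to 40.2% GC and longer calls 37.6% to 38.2%. Against calls of 500 kb to under 1 Mb, at 38.8 ± 0.44%, the difference was 0.42 points, again in 6 of 6 libraries (exact p = 0.03125, adjusted p = 0.0625). Single short calls ranged from 36.0% to 46.5%. Short calls were covered by the LADs of other libraries over a mean of 27.6 ± 7.73% of their length and longer calls over 63.6 ± 5.38% (SD, n = 6), lower in short calls of 6 of 6 libraries (exact p = 0.03125, adjusted p = 0.0417). The mean coverage was 44.8 ± 13.1% in the other fine-grid libraries and 16.9 ± 4.93% in the 8 others, against 79.7 ± 7.41% and 53.5 ± 4.12% for longer calls. Calls of 500 kb to under 1 Mb stood between, at 42.3 ± 8.05%. The distance to the nearest other LAD of the same library, as a median of log10(kb + 1), was 3.10 ± 0.15 for short and 3.24 ± 0.06 for longer calls, lower in 4 of 6 libraries (exact p = 0.125, adjusted p = 0.125). In kb, 110 of the 197 short calls were over 1 Mb from any other call, 28 were over 5 Mb away and 16 lay within 100 kb of one, and for 163 of them the nearest call was a longer one.

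**Figure D5:**
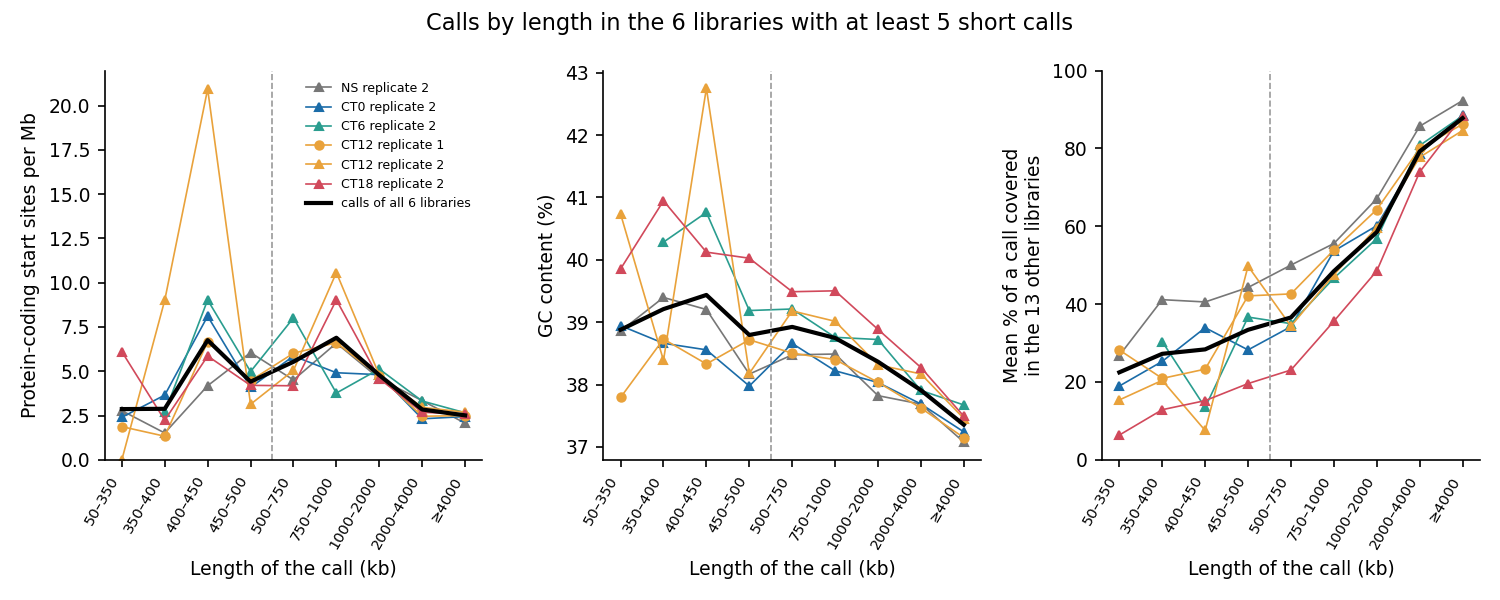
Protein-coding start sites per Mb, GC content in percent and mean percentage of a call covered by the LADs of the 13 other libraries (y axes) by length of the call in kb (x axes), in the 6 libraries with at least 5 short calls (coloured lines) and over the calls of all 6 (black). Calls left of the dashed line are short calls, and coverage rises with length from 22.5% under 350 kb to 87.8% in calls of 4 Mb and more. Gene density over the calls of all 6 falls with length only from the class of 750 to 1000 kb on.

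Gene content was also taken by how a call recurred. The 29 calls that were short elsewhere and never in a longer LAD held 9.48 protein-coding starts per Mb, the 64 that were both 4.64, the 83 found in longer LADs only 2.71 and the 21 that were neither 5.34. No protein-coding start was found in 8 of the 29 (27.6%) and in 51 of the 83 (61.4%). GC content was 39.9%, 38.8%, 39.0% and 39.4% in these 4 sets. These are values over calls of 9 libraries that share loci, with no test. The calls lay on all 19 autosomes, from 2.56 per 100 Mb on chromosome 1 to 14.9 on chromosome 13, 14.7 on chromosome 19 and 13.5 on chromosome 15.

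Most short calls held few genes. Of the 197, 102 (51.8%) held no protein-coding start, 38 held 1, 24 held 2 to 4 and 33 held 5 or more, and 8 held no annotated gene start of any kind. In all, 257 of 20807 autosomal protein-coding genes (1.24%) started in a short call of at least 1 library, and 3300 (15.9%) started in longer LADs only. Of the 257, 156 were in short calls of 1 library, 88 of 2 and 13 of 3, and 102 (39.7%) were in no longer LAD of any mouse. Receptors of smell and pheromones made up 69 of the 257 genes, or 26.8%, against 7.00% of all autosomal protein-coding genes and 32.7% of those in longer LADs only.

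Vomeronasal receptors, which detect pheromones, had 39 of 329 genes (11.9%) in short calls and 230 (69.9%) in longer LADs only. Vmn1r27, Vmn1r28 and Vmn1r29 on chromosome 6 were in short calls of CT6 replicate 2 and CT18 replicate 2 and in a longer LAD of CT12 replicate 1. Olfactory receptors had 30 of 1128 genes (2.66%) in short calls and 849 (75.3%) in longer LADs only. All but Olfr459 lay on chromosome 16, where NS replicate 2 had the short call richest in genes, chr16:58912001-59384000, with 20 protein-coding starts. Olfr183 and Olfr186 of that cluster were in short calls of NS replicate 2 and CT0 replicate 2 and in longer LADs of CT6 replicate 2 and CT12 replicate 1. Such genes form tandem arrays, so many genes stand for few calls and are not separate observations.

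Serpins, inhibitors of proteases, had 8 of 60 genes (13.3%) in short calls, namely the 6 Serpinb genes of the CT12 locus with Serpinb9f and Serpinb9g, and 45 (75%) in no LAD. Zinc finger genes named Zfp had 7 of 388 (1.80%) in short calls, which were Zfp40, Zfp936, Zfp945, Zfp966, Zfp969, Zfp980 and Zfp986. Genes of neuronal adhesion had 2 of 27, Cntn1 and Opcml, and 18 in longer LADs only. GABA and glutamate receptors had 1 of 42 (Gria2) and potassium channels 1 of 92 (Kcnn2). Solute carriers had 2 of 372 (Slc4a10 and the choline transporter gene Slc5a7), and genes named Ugt 1 of 22 (Ugt8a, an enzyme of myelin lipid synthesis). Cytochrome P450 genes (100), keratins (113), protocadherins (67), cadherins (23), defensins (66) and histones (67) had none in short calls, though 44 protocadherins and 48 defensins were in longer LADs only. None of 22 clock genes, 34 autosomal genes for liver plasma proteins and 14 for lamina and envelope proteins started in a short call. Of these 3 lists, 1 clock gene started in a longer LAD. Among all autosomal protein-coding genes 1.24% started in a short call, so lists this small may hold none or 1 at that share. Counts of none or 1 therefore do not set a family apart, and no list was tested.

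Among single genes ranked by the number of libraries with a short call over their start, Lipo1, Lipo2 and Lipo3 came first, with 3 libraries and longer LADs in 5 more. The placental cathepsin genes Cts7 and Ctsm were in short calls of CT0 replicate 2 and CT12 replicate 1 and in longer LADs of 7 libraries, and Cts3 in those of 6. Prl2c2 and Prl2c3, placental hormones of the prolactin family, were in short calls of CT0 replicate 2 and CT12 replicate 2 and in longer LADs of 4 libraries. Tmem74 was in short calls of NS replicate 2 and CT0 replicate 2 and in longer LADs of 6 libraries. Gpm6a, a neuronal membrane glycoprotein gene, and its neighbour Wdr17 were in short calls of the same 2 mice and in longer LADs of 4. Bcl2a1a, a gene of the BCL2 family, was in short calls of NS replicate 2 and CT18 replicate 2 and in no longer LAD. Lipo, Cts, Prl2c, Sval, Serpinb and receptor genes belong to families of related copies, and reads may map to more than 1 place where copies are alike enough. How alike these copies are was not measured. Repeats masked by RefSeq took 41.5% to 48.0% of the short calls and 41.8% to 43.2% of the longer ones in the 6 libraries. The part of read mapping in these calls was not tested.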

How the data were processed

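LMNB1 ChIP-seq of liver from 14 mice was analysed, and each library was assigned to its time point and replicate by its title in the labels, also for CT12 replicate 1, whose deposited intervals carry another replicate number in their name. Per the labels and the methods, the authors removed duplicates with Picard, mapped reads to mm10 with Bowtie (given as 2.25.0), equalized the reads of ChIP and input chromosome by chromosome, and ran EDD on each mouse with bin size and gap penalty averaged over 10 runs. The deposited intervals hold start and end only, with no counts or score, so the depth is unknown and no counting interval could be given. Replicates were not pooled. The inputs and the RNA-seq were not analysed here.

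Calls were used as deposited, and written 1-based. Short calls measured 50 kb to under 500 kb on chromosomes 1 to 19, and longer calls 500 kb or more. Another 37 autosomal calls under 50 kb counted as LADs when coverage was computed and were otherwise left out. A call was covered in a library whose LADs held at least 0.5 of its length. Genes were those of GENCODE vM21 by start site, and bases those of GRCm38.p6. Python 3.11.15, NumPy 2.4.6 and SciPy 1.17.1 were used, and the statistics were tested on simulated intervals. Exact permutation tests over libraries were used, with 100000 resamples for correlations over 14 libraries, a threshold of 0.05 and Benjamini-Hochberg adjustment. The p-values measure the spread between libraries, that is of mice and their grid steps together.

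The 10 named loci were those with short calls in the most libraries, with ties taken by the smaller chromosome number and start. The 25 genes ranked first had the most libraries with a short call over their start site, then the most with any LAD, with placeholder symbols left out and at most 3 per symbol prefix, and genes outside that rule were chosen after their values were seen. Members and gene lists were chosen with earlier results of these data known. Alternatives were other length limits, overlaps, gene sets and comparison classes, the replicate block and leaving out each library.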

Additional observations from a re-analysis of the deposited data

How the results depend on the processing

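The number of short calls kept its side of the threshold between the CTs and its relation to the grid step under every alternative run, except that r was 0.11 in the 8 libraries with steps of 14 kb or more. Within the 7 mice numbered replicate 1 the relation was not past it either (r = -0.79, exact permutation p = 0.124). The F ratio ranged from 0.452 to 2.78 when 1 library was left out, the highest without CT0 replicate 1. CT0 minus NS ranged from -30.5 to 24.5 when 1 of the 4 libraries was left out, being 24.5 without NS replicate 2 and 22.5 without CT0 replicate 1. The coverage of short calls in replicate against other pairs ranged from -10.8 to 7.54 percentage points when 1 library was left out. It was negative without CT12 replicate 1 (-2.99), CT12 replicate 2 (-2.82), CT24 replicate 1 (-10.8) or CT24 replicate 2 (-4.17). It was -7.06 with the calls of both directions pooled and 11.1 in the 6 libraries with at least 5 short calls. Both settings were chosen after seeing the data. Among these 6 libraries CT12 was the only time point with both mice, so the value of 11.1 rests on that pair. Short minus longer protein-coding starts per Mb turned to -0.67 with a limit of 400 kb and to -1.12 against calls of 500 kb to under 1 Mb. With these 2 settings GC content gave 1.44 and 0.42 points and coverage in other libraries -37.8 and -14.7 points, no longer past the threshold after adjustment. With 400 kb only 4 libraries remained, too few for the test to pass. Against calls of 500 kb to under 1 Mb both measures kept their sign in 6 of 6 libraries. Their exact sign-change p was 0.03125 there, the smallest possible, and 0.0625 after adjustment over the 4 measures. The distance to the nearest LAD gave -0.10 with a limit of 750 kb, past the threshold with 8 libraries. Leaving out 1 of the 6 libraries leaves 5, for which the smallest p is 0.0625, so such a fit cannot pass. The differences then ranged from 1.47 to 2.15 starts per Mb, from 1.29 to 1.53 GC points and, over all libraries left out, from -37.0 to -35.1 points of coverage.

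With the replicate number as a block, F was 0.737 between the CTs (exact permutation p = 0.667), again not past the threshold. CT0 minus NS was then -3, made of -1 and -5. Its exact sign-change p of 0.5 is the smallest that 2 pairs can give, so this fit could not pass. The replicate numbers were not taken to pair the libraries in the main tests. Deviations of same-numbered mice correlated from -0.17 to 0.49 over bins of 100 kb, and above 0.1 in 6 of 21 pairs of time points. These values do not show that same-numbered mice had nothing in common. All libraries with a step of 11 kb or less, except CT12 replicate 1, were numbered replicate 2. Depth could limit which short stretches were called and cannot be assessed from intervals.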
